A study of Mus musculus with 12 samples.

Results

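The genes described here are the fibrillar collagens of the mouse ascending aorta: Col1a1 and Col1a2 of type I collagen, Col3a1 of type III, Col5a1, Col5a2 and Col5a3 of type V, and Col11a1 of type XI. A probe set was taken for a gene where the platform annotation gave that symbol and no other, and a gene with several such probe sets was represented by the one of highest mean. All 7 members were found among 19938 genes, each with 1 probe set, and all 7 were bright enough to be among the 14944 genes tested. RNA was hybridised to 12 one-colour whole-transcript arrays in 4 groups of 3, which cross the Fbn1 genotype with the state of Tgfbr2, which encodes a TGF-beta receptor. The study's title asks what disruption of Tgfbr2 does to expression in the aorta with wild-type Fbn1 and with the C1039G allele.

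Mice of every group were labelled Myh11-CreERT2 with Tgfbr2 f/f, which is a tamoxifen-inducible Cre under the promoter of a smooth muscle myosin together with floxed Tgfbr2. Wild-type controls had 2 normal copies of Fbn1 and received corn oil. Wild-type knockouts had the same genotype and received 1 mg of tamoxifen intraperitoneally on each of 5 days from an age of 4 weeks. Mutant controls carried Fbn1 C1039G/+, a heterozygous fibrillin-1 allele used as a model of Marfan syndrome, and received corn oil. Mutant knockouts carried that allele and received tamoxifen. Tissue was taken at 6 weeks. Knockout against control is therefore also tamoxifen against vehicle, and the effects of the drug and of the deletion cannot be told apart. By its Cre, the deletion is directed to smooth muscle cells and is meant to leave other cells of the wall with an intact receptor. Whether it did so was not tested. The labels do not say that the 3 arrays of a group are 3 animals, so p-values measure only the spread between these samples.

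Fibrillar collagens form the load-bearing fibrils of the arterial media and adventitia. Type I fibrils are built from chains of Col1a1 and Col1a2, type III homotrimers of Col3a1 copolymerise with them, and the minor type V and type XI chains sit inside the fibril, start its assembly and limit its diameter. Procollagen chains are hydroxylated and folded in the endoplasmic reticulum, trimmed outside the cell and cross-linked by lysyl oxidases. In arteries they are made by smooth muscle cells and fibroblasts, and TGF-beta signalling through SMAD proteins is a known inducer of their transcription.

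The proximal promoters are shown because the group means of members such as Col1a2, Col3a1 and Col5a1 moved together below. These promoters can be set beside those of Col5a3 and Col11a1, whose group means did not move with them. The promoters are 150 bases that end just before the outermost annotated start, from RefSeq on build GRCm38.p6, written 5′ to 3′ on the strand of the gene. Promoters were found for 5 of the 7 members. Capitals mark 4 short motifs searched on both strands: the CCAAT box, the core TATA box sequence TATAAA, the GC box GGGCGG and the SMAD half-site CAGAC. No match overlaps another here.
Col1a2, chr6:4505468-4505617, plus strand: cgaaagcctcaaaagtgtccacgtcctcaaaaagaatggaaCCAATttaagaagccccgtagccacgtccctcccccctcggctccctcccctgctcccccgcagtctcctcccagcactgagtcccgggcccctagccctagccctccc
Col3a1, chr1:45311388-45311537, plus strand: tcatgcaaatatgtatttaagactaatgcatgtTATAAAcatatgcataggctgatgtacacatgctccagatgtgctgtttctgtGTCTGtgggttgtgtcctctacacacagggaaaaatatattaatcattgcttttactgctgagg
Col5a1, chr2:27886231-27886380, plus strand: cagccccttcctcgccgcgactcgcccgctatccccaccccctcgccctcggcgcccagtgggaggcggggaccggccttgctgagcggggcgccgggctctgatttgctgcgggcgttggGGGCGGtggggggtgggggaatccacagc
Col5a3, chr9:20815118-20815267, minus strand: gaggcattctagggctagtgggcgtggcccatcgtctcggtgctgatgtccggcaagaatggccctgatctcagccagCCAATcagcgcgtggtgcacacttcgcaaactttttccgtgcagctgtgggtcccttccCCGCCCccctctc
Col11a1, chr3:114030329-114030478, plus strand: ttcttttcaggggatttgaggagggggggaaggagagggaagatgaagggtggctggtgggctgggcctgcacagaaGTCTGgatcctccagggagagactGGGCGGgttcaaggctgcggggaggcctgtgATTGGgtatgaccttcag

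CCAAT was present in Col1a2, where it lay 109 to 105 bases before the start, in Col5a3 at 72 to 68 bases and, on the other strand, in Col11a1 at 18 to 14 bases. It was present in 24.5% of all 32851 promoters of the same length. TATAAA was present in Col3a1 alone among the 5 members, 117 to 112 bases before the start, and in 7.57% of all promoters. GGGCGG was present in Col5a1, Col5a3 and Col11a1, and in 28.6% of all. CAGAC was present on the other strand in Col3a1 and Col11a1, and in 27.7% of all. No motif was shared by Col1a2, Col3a1 and Col5a1, which were the members with a promoter here that were higher in the mutant controls, and these matches are a description of the letters only. The Col3a1 promoter was 37.3% GC and that of Col5a1 76% GC, with Col1a2, Col5a3 and Col11a1 between 60% and 62.7%.

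Median intensity per array lay between 301 and 334, and arrays correlated over the genes tested at 0.9931 to 0.9962 within groups and 0.9811 to 0.9931 across groups. The 1 probe set for Tgfbr2 gave no check of the labels: it differed between knockout and control by -0.08 ± 0.05 on the log2 scale in the wild-type (SE, limma adjusted p = 0.324) and by 0.04 ± 0.05 in the mutant (adjusted p = 0.594). The labels are not uniform either: titles and characteristics of all knockout samples name Tgfbr2, while the descriptions name Tgfbr3 for knockout 2 and Tgfbr4 for knockout 3 of each Fbn1 genotype. Groups are called knockout of Tgfbr2 as the titles have it. All 12 smooth muscle markers, Myh11 and Acta2 among them, were above the level under which genes were not tested. The brown fat gene Ucp1 stood at log2 values of 6.75 to 6.93 in 9 arrays and at 8.58 in mutant control 3, 8.21 in mutant knockout 1 and 7.30 in mutant knockout 2, so each result below is also given without the 2 highest of these where that ends a member's call or moves a list's count by over 1.5 times. In bulk tissue, fewer cells of a type and less RNA per cell cannot be told apart.

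Col1a1, the major chain of type I collagen, had log2 intensities of 13.10, 13.11 and 13.30 in the wild-type controls, 13.44, 13.53 and 13.56 in the wild-type knockouts, 13.97, 13.82 and 13.75 in the mutant controls and 13.61, 13.68 and 13.58 in the mutant knockouts. The 4 groups did not overlap: every wild-type control lay under every wild-type knockout, these under every mutant knockout, and these under every mutant control. In linear intensity the group means were 9239, 11709, 12626 and 14781 from lowest to highest. Between neighbours in that order, the lower step passed the test (wild-type knockout over wild-type control, adjusted p = 0.00493), the middle step did not (adjusted p = 0.428) and the upper step did not (adjusted p = 0.053).

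Col1a2, the other chain of type I collagen, had a narrower spread. Its values were 13.30, 13.30 and 13.39 in the wild-type controls, 13.32, 13.38 and 13.44 in the wild-type knockouts, 13.74, 13.65 and 13.58 in the mutant controls and 13.40, 13.49 and 13.40 in the mutant knockouts. The mutant controls lay above all other arrays, and both knockout groups overlapped each other. The means from lowest to highest were 13.33 ± 0.06 in wild-type controls, 13.38 ± 0.06 in wild-type knockouts, 13.43 ± 0.05 in mutant knockouts and 13.66 ± 0.08 in mutant controls (SD, n = 3). Of its neighbouring steps, that from mutant knockout to mutant control passed the test (adjusted p = 0.0207), while the lower steps did not (adjusted p = 0.623 and 0.678).

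Col3a1, the chain of type III collagen, had values of 12.27, 12.46 and 12.59 in the wild-type controls, 12.61, 12.70 and 12.71 in the wild-type knockouts, 13.10, 12.99 and 12.91 in the mutant controls and 12.55, 12.63 and 12.58 in the mutant knockouts. Mutant controls were again above every other array, and the mutant knockouts overlapped both wild-type groups. Unlike in type I collagen, the mean of the mutant knockouts (12.59 ± 0.05) was under that of the wild-type knockouts (12.67 ± 0.06), a step that did not pass the test (adjusted p = 0.586). The wild-type controls had the widest spread of the 4 groups for this gene (SD 0.16), with wild-type control 1 the lowest array.

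Col5a1, which carries the chain found in most type V molecules, had values of 10.45, 10.40 and 10.49 in the wild-type controls, 10.45, 10.61 and 10.59 in the wild-type knockouts, 10.99, 10.78 and 10.69 in the mutant controls and 10.54, 10.70 and 10.61 in the mutant knockouts. Mutant control 1 was the highest array, and the lowest mutant control lay just under the highest mutant knockout. None of the 3 steps between neighbours in the order wild-type control, wild-type knockout, mutant knockout, mutant control passed the test (adjusted p = 0.389, 0.665 and 0.0866), although the ends of that order did.

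Col5a2, whose chain pairs with that of Col5a1 and whose gene neighbours Col3a1 on chromosome 1, had values of 10.39, 10.44 and 10.49 in the wild-type controls, 10.63, 10.58 and 10.79 in the wild-type knockouts, 10.96, 10.81 and 10.79 in the mutant controls and 10.46, 10.47 and 10.51 in the mutant knockouts. The mutant knockouts overlapped the wild-type controls and lay under every wild-type knockout and every mutant control. Wild-type knockout 3 came close to the lowest mutant control without reaching it. From lowest to highest, the step from wild-type control to mutant knockout did not pass the test (adjusted p = 0.739), nor did that to the wild-type knockouts (adjusted p = 0.0995) or that to the mutant controls (adjusted p = 0.0582).

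Col5a3, a minor type V chain, ranged only from 8.64 to 8.82 over the 12 arrays. Its group means were 8.68 ± 0.04 in wild-type controls, 8.70 ± 0.06 in mutant controls, 8.73 ± 0.08 in wild-type knockouts and 8.74 ± 0.001 in mutant knockouts, and no step in that order passed the test. Col11a1, the type XI chain best known from cartilage, ranged from 8.68 to 8.90. Its means were 8.75 ± 0.06 in wild-type controls, 8.77 ± 0.09 in mutant controls, and 8.87 in both the wild-type and the mutant knockouts (SD 0.03 and 0.04). For both genes the knockout groups had the higher means, an order in which the other 5 members did not stand, and no comparison of either gene was called.

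**Figure D1:**
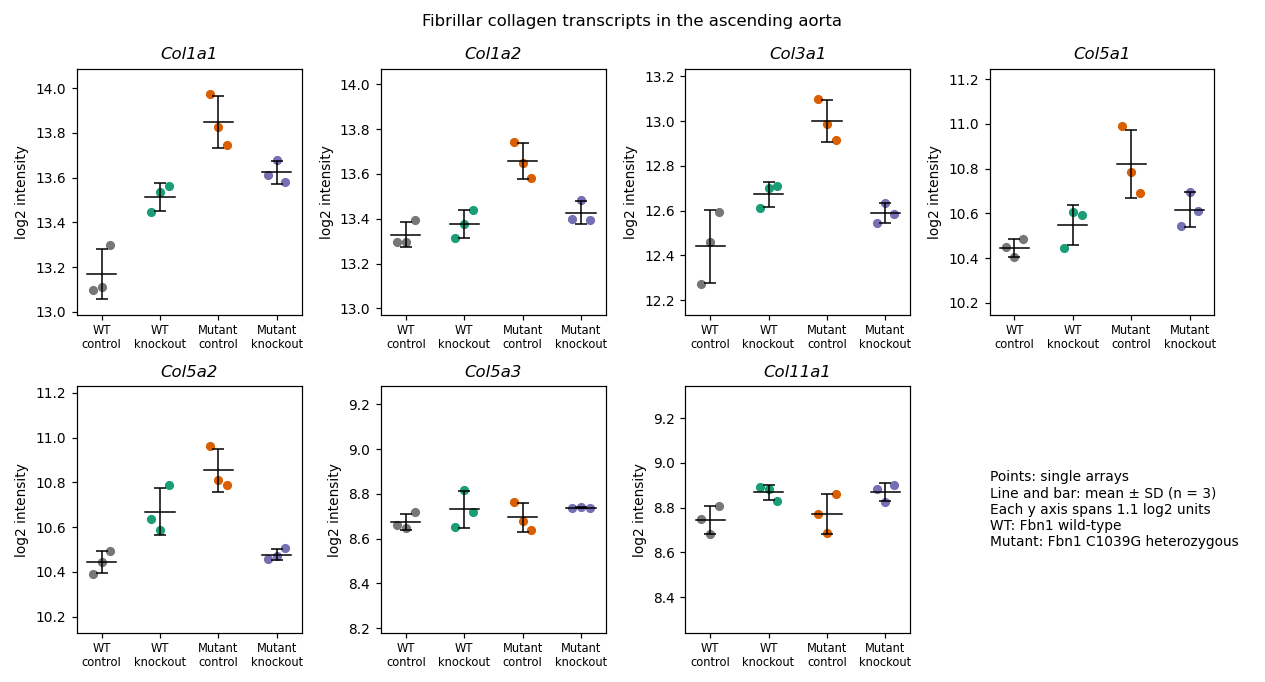
Log2 intensity of the 7 fibrillar collagens in each of the 12 arrays by group, with the group mean and SD as a line and bar (n = 3). Every axis spans 1.1 log2 units, so that the spread of Col1a1 from 13.10 to 13.97 can be compared with that of Col5a3 from 8.64 to 8.82.

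Among vehicle-treated mice, transcripts of type I, type III and the main type V chains were higher with the Fbn1 mutation. In all 5 members rose, Col1a1 by 0.68 ± 0.07 on the log2 scale (SE; 1.6-fold, limma adjusted p = 0.000333), Col3a1 by 0.56 ± 0.08 (1.47-fold, adjusted p = 0.0018), Col5a2 by 0.41 ± 0.06 (1.33-fold, adjusted p = 0.00343), Col5a1 by 0.38 ± 0.08 (1.3-fold, adjusted p = 0.0128) and Col1a2 by 0.33 ± 0.06 (1.26-fold, adjusted p = 0.00607). That is 5 of 7 members, where 3.17% of the 14944 genes were called higher and 6.49% were called in either direction. Every mutant control lay above every wild-type control for these 5, as for 11.4% of all genes. Col5a3 differed by 0.02 ± 0.05 (adjusted p = 0.847) and Col11a1 by 0.03 ± 0.06 (adjusted p = 0.804), with 95% intervals of -0.10 to 0.14 and -0.09 to 0.15. The median difference was 0.38 over the members and -0.02 over all genes tested.

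Within type I collagen, the 95% intervals of the difference were 0.53 to 0.83 for Col1a1 and 0.21 to 0.45 for Col1a2, and the gap between the genes was not itself tested. By rank of p among all genes tested, Col1a1 stood 15th, Col3a1 57th and Col5a2 102nd. The 5 calls held in each of the 22 other settings tried for this comparison, including without the 2 arrays of highest Ucp1. The summed intensity of the 12 fibroblast markers measured was 45890 to 53890 in wild-type controls and 47380 to 51930 in mutant controls, with 0 of 12 called higher and 1 lower. Markers of activated fibroblasts stood apart, with sums of 43450 to 44520 against 48740 to 50880 and 2 of 8 tested called higher and none lower. That list includes Acta2, also a smooth muscle marker, which makes up a large part of each sum. The mean log2 value of Acta2 was 14.54 in wild-type and 14.60 in mutant controls. Of 13 cell division markers 9 were higher, their summed intensity being 3908 to 4026 in wild-type and 5592 to 6706 in mutant controls, and 2 of 14 macrophage markers were higher. The part of dividing or other cells in the collagen differences was not tested.

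In the wild-type background, 2 members rose with knockout. Col1a1 was higher by 0.34 ± 0.07 (1.27-fold, adjusted p = 0.00493) and Col5a2 by 0.23 ± 0.06 (1.17-fold, adjusted p = 0.0253). Col3a1 differed by 0.23 ± 0.08 without overlap and just missed the threshold (adjusted p = 0.0511), Col11a1 differed by 0.12 ± 0.06 (adjusted p = 0.142), and Col5a1, Col5a3 and Col1a2 by 0.10, 0.06 and 0.05 (adjusted p = 0.389, 0.514 and 0.623). That is 2 of 7 members, both higher, where 9.17% of all genes were called higher and 18.8% in either direction. Whether 2 of 7 differs from these shares was not tested. Arrays did not overlap for 4 members, all higher, as for 16.2% of all genes. The median difference was 0.12 over the members and -0.01 over all genes.

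For the type I chains the 95% interval was 0.19 to 0.50 for Col1a1 and -0.08 to 0.17 for Col1a2, and the gap between them was not tested. The call of Col5a2 rested on single arrays, with adjusted p = 0.0806 when wild-type control 1 was left out, 0.0651 for wild-type control 2, 0.051 for wild-type knockout 1 and 0.111 for wild-type knockout 3. Col3a1 was called without wild-type control 3 (0.31, adjusted p = 0.0142) or mutant control 1 (adjusted p = 0.0476), with the filter at the median (adjusted p = 0.042), with trend and robust variances (adjusted p = 0.0328) and with array weights (adjusted p = 0.0269). All 14 macrophage markers were higher in the wild-type knockouts, their summed intensity being 10710 to 13070 in controls and 21440 to 23480 in knockouts. All 13 cell division markers were higher too, at 3908 to 4026 against 7496 to 8514. Fibroblast markers were higher in 5 of 12 and lower in none, with sums of 45890 to 53890 against 55960 to 59360, and activated fibroblast markers in 4 of 8, with sums of 43450 to 44520 against 48530 to 50080. Endothelial markers were higher in 6 of 12, with sums of 16820 to 18980 against 21580 to 27400, and cardiac muscle markers were higher in 3 and lower in 1 of 9, with sums of 10120 to 12060 against 14590 to 16690. Smooth muscle markers were higher in 1 and lower in 3 of 12, with sums of 144000 to 144600 against 140800 to 142200. The part of any of these cells in the collagen differences was not tested.

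In the mutant background the calls were downward. In all 3 members fell with knockout: Col3a1 by 0.41 ± 0.08 (1.33-fold lower, adjusted p = 0.005), Col5a2 by 0.38 ± 0.06 (1.3-fold lower, adjusted p = 0.00291) and Col1a2 by 0.23 ± 0.06 (1.17-fold lower, adjusted p = 0.0207). Col1a1 differed by -0.23 ± 0.07 without overlap (adjusted p = 0.053) and Col5a1 by -0.20 ± 0.08 with overlap (adjusted p = 0.0866). Col5a3 and Col11a1 differed by 0.04 and 0.10 (adjusted p = 0.598 and 0.239). That is 3 of 7 members, where 5.77% of all genes were called lower and 13.4% in either direction, and the arrays of 4 members did not overlap, all lower, as for 14.1% of all genes. The median difference was -0.23 over the members and 0.03 over all genes.

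Of all calls in this comparison 57% were higher, but 32.5% were with each array centred on its median, under which all 5 of the larger collagen differences were called lower. The call of Col1a2 rested on single arrays: adjusted p = 0.073 when mutant control 1 was left out, 0.0593 for mutant control 2, 0.065 for mutant knockout 1, 0.0514 for mutant knockout 3 and 0.0535 for the 2 arrays of highest Ucp1. It also ended with those groups alone in the fit (adjusted p = 0.0523). Without mutant control 3, Col1a1 (adjusted p = 0.0349) and Col5a1 (adjusted p = 0.0406) were called as well, which made 5, and without wild-type control 3 Col1a1 was (adjusted p = 0.0337). Col1a1 was called too with the filter at the median (adjusted p = 0.0469), with trend and robust variances (adjusted p = 0.0334) and with array weights (adjusted p = 0.0275). Col3a1 and Col5a2 were called lower in every one of the 22 other settings. Macrophage markers were higher in 7 of 14, with sums of 11470 to 14870 in mutant controls and 17250 to 17680 in mutant knockouts, and fibroblast markers were higher in 3 and lower in 1 of 12, with sums of 47380 to 51930 against 49180 to 53260. Activated fibroblast markers were higher in 1 and lower in 4 of 8, with sums of 48740 to 50880 against 45260 to 45790. Endothelial markers were higher in 7 of 12, with sums of 15220 to 19530 against 19910 to 24060, and cardiac muscle markers were higher in 3 and lower in 1 of 9, with sums of 9151 to 12850 against 16570 to 18590. Cell division markers were higher in 2 of 13 and lower in none, with sums of 5592 to 6706 against 6161 to 8663. Smooth muscle markers were higher in 2 and lower in 2 of 12, with sums of 140100 to 144100 against 140600 to 143100. The part of any of these cells in the lower collagen values was not tested.

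**Figure D2:**
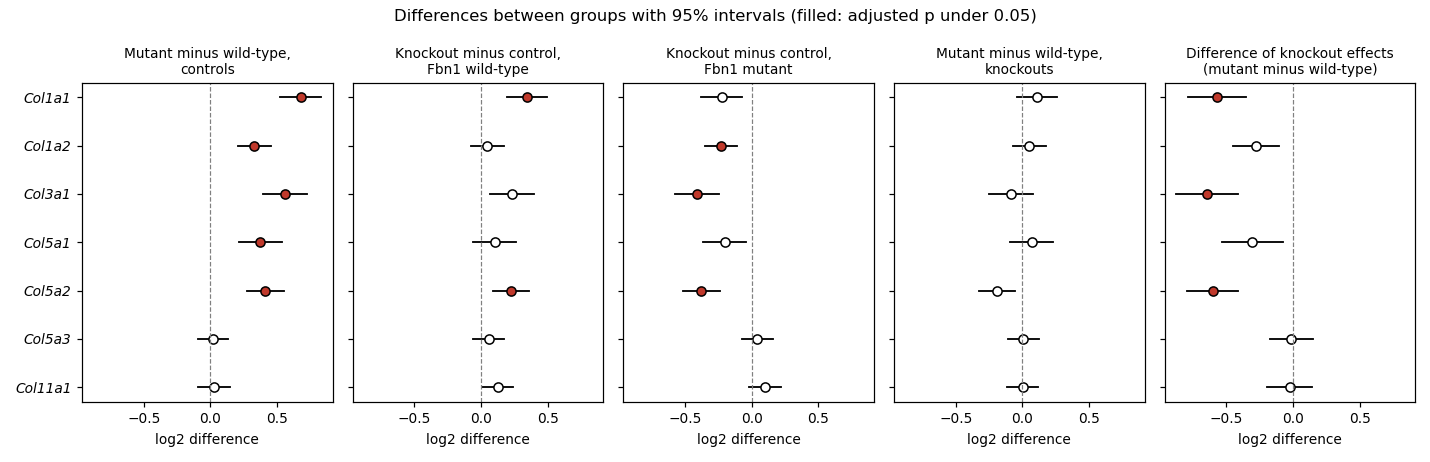
Log2 differences between groups for the 7 members in 5 comparisons, as points with 95% intervals, filled where the adjusted p was under 0.05. For mutant against wild-type controls, 5 members are filled above 0. For knockout, Col1a1 and Col5a2 are filled above 0 in the wild-type, and Col1a2, Col3a1 and Col5a2 under 0 in the mutant. In the wild-type all 7 points are above 0, and the open points of Col3a1 and Col11a1 have intervals clear of 0. In the mutant the open points of Col1a1 and Col5a1 have intervals wholly under 0. The panel of the difference of effects has Col1a1, Col3a1 and Col5a2 filled.

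The difference between these 2 knockout effects was tested as an interaction, which uses the same 4 groups. The effect in the mutant lay under that in the wild-type by 0.64 ± 0.11 for Col3a1 (log2 difference -0.64, adjusted p = 0.012), by 0.60 ± 0.09 for Col5a2 (-0.60, adjusted p = 0.00581) and by 0.57 ± 0.10 for Col1a1 (-0.57, adjusted p = 0.0155). These are 3 of 7 members, where 1.48% of all genes were called and 1.08% called lower. Col1a1 and Col5a2 rose with knockout in the wild-type, Col3a1 and Col5a2 fell with it in the mutant, and Col5a2 alone among the members was called in each genotype. Col5a1 (-0.31 ± 0.11, adjusted p = 0.175) and Col1a2 (-0.28 ± 0.08, adjusted p = 0.115) did not pass. Col5a3 and Col11a1 gave -0.01 and -0.03, values that changed sign under some settings, with 95% intervals of -0.18 to 0.15 and -0.20 to 0.14. The 3 calls held in all 21 other settings, the adjusted p of Col1a1 reaching 0.0472 when 1 array was left out. Of all calls 27.1% were higher as deposited and 14.8% with arrays centred on their median.

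Markers of activated fibroblasts moved alongside: 5 of the 8 tested had a lower knockout effect in the mutant, and the summed intensity of the 9 measured was 43450 to 44520, 48530 to 50080, 48740 to 50880 and 45260 to 45790 in wild-type controls, wild-type knockouts, mutant controls and mutant knockouts. That list shares Fap, Timp1, Ltbp2 and Postn with the collagen lists below, and Acta2 with the smooth muscle markers. Macrophage markers had a lower effect in 4 of 14 and cell division markers in 6 of 13. The part of any of these in the interaction of the collagens was not tested.

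Between the 2 knockout groups, no member was called by limma for the Fbn1 genotype, and 1 of the 7 had an unadjusted p under 0.05. That gene was Col5a2, lower in the mutant knockouts by 0.19 ± 0.06 without overlap (log2 difference -0.19, adjusted p = 0.0995). With array weights it was called (-0.21, adjusted p = 0.0327). Col1a1 was higher in every mutant knockout than in every wild-type knockout, with a difference of 0.11 ± 0.07 (adjusted p = 0.428). Of all genes 5.96% were called in this comparison, and arrays did not overlap for 26.3%. Col1a2, Col5a1 and Col3a1 differed by 0.05, 0.07 and -0.09, and Col5a3 and Col11a1 by 0.01 and 0.001, with signs that turned under median centring and quantile normalization. The median difference was 0.01 over the members and over all genes.

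Set against unaffected aorta, the mutant knockouts had higher Col1a1 by 0.45 ± 0.07 (1.37-fold, adjusted p = 0.000746), the 1 member called where 11.4% of all genes were called higher and 23.3% in either direction. Col5a1 (0.17), Col3a1 (0.15), Col11a1 (0.13), Col1a2 (0.10), Col5a3 (0.06) and Col5a2 (0.03) did not pass, the last turning to -0.01 with arrays centred on their median. Col3a1 was called without wild-type control 3 (0.22, adjusted p = 0.0473). Arrays did not overlap for 5 members, all higher, as for 19.9% of all genes.

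The wild-type knockouts had less of 4 members than the mutant controls: Col1a1 by 0.33 ± 0.07 (adjusted p = 0.00657), Col3a1 by 0.33 ± 0.08 (adjusted p = 0.011), Col1a2 by 0.28 ± 0.06 (adjusted p = 0.00502) and Col5a1 by 0.27 ± 0.08 (adjusted p = 0.0239), the log2 differences being -0.33, -0.33, -0.28 and -0.27. Of all genes, 8.69% were called lower and 19.1% in either direction. Col5a2 differed by -0.19 ± 0.06 (adjusted p = 0.0582) and was called without wild-type knockout 3 (adjusted p = 0.0273). Arrays did not overlap for these 5 members, as for 18.5% of all genes in that direction. The call of Col5a1 ended without wild-type knockout 1 (adjusted p = 0.094), mutant control 1 (adjusted p = 0.0841) or mutant control 2 (adjusted p = 0.0529), and with those groups alone in the fit (adjusted p = 0.0557). The 6 pairwise comparisons share their groups with each other, so their values are not independent.

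The members did not all vary together. Over the 12 arrays, pairs among Col1a1, Col1a2, Col3a1, Col5a1 and Col5a2 correlated with Pearson r between 0.758 (Col1a1 with Col5a2) and 0.955 (Col1a2 with Col5a1). Col5a3 correlated with these 5 at 0.068 to 0.395 and Col11a1 at -0.206 to 0.193, and Col5a3 with Col11a1 at 0.391. With the group means taken out, Col1a1 and Col1a2 had r = 0.953 and Col1a2 and Col5a1 0.891, while Col5a2 was at 0.586 to 0.725 with the other 4. By the same measure Col5a3 was at 0.736 with Col1a1 and 0.8 with Col5a1, and Col11a1 at -0.257 to -0.072 with the 5. These points share arrays and their scaling, and the first set also the group differences. Mutant control 1 was the highest of its group for Col1a1, Col1a2, Col3a1, Col5a1, Col5a2 and Col5a3, and wild-type control 3 for all 7 members of its own.

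**Figure D3:**
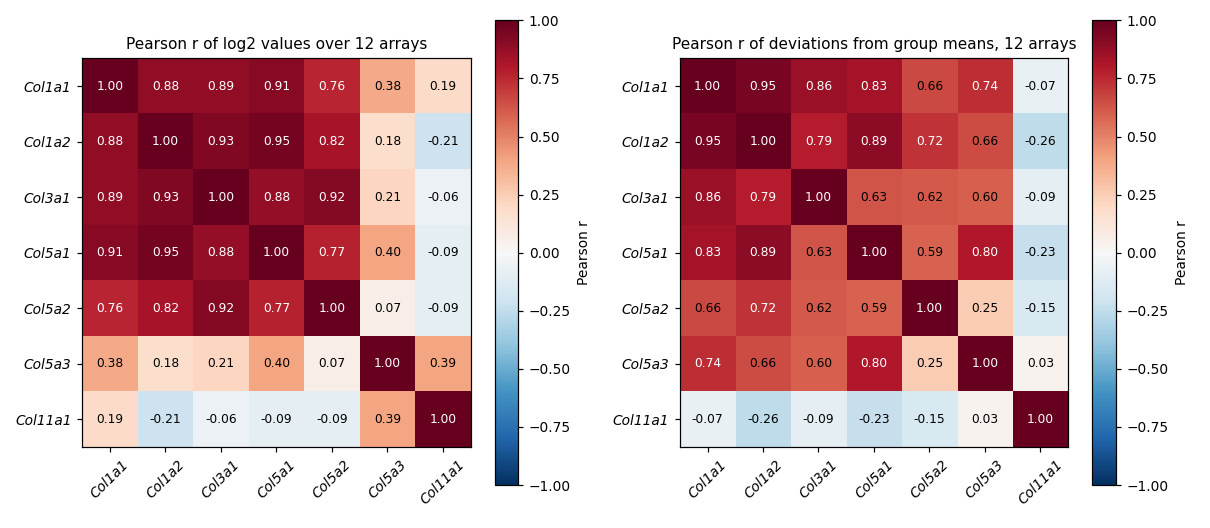
Pearson r between the 7 members over the 12 arrays, of log2 values on the left and of deviations from group means on the right, from -1 in blue to 1 in red. The block of Col1a1, Col1a2, Col3a1, Col5a1 and Col5a2 is at 0.758 or more on the left, and Col11a1 stands apart from it on both sides.

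Among the genes tested that are no members, those nearest to the mean of the members over the 12 arrays were Eln (r = 0.937), the gene of elastin, then C1qtnf6 (0.934), Tnfaip8 (0.922), Arf4 (0.919) and Niban1 (0.912). Eln differed by 0.75 between mutant and wild-type controls, by 0.45 with knockout in the wild-type and by -0.49 with knockout in the mutant, and C1qtnf6 by 1.04, 0.40 and -0.61. For single members, Adamts12, a secreted metalloprotease, was nearest to Col1a1 (r = 0.966), Pi15 to Col1a2 (0.958), with the fibril-associated collagen Col14a1 next (0.953), Eln to Col3a1 (0.948), Tm9sf4 to Col5a1 (0.942) and Fstl1 to Col5a2 (0.909). Rab38 was nearest to Col5a3 (0.904) and Il21r to Col11a1 (0.898). These genes were picked for their likeness out of 14937, so their values are a description.

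The remaining genes of collagen biology were followed in lists. Of 4 other fibrillar collagens (Col2a1, Col11a2, Col24a1 and Col27a1) none was called by limma with the mutation in controls, where 1 had an unadjusted p under 0.05, or with knockout in the mutant, where 0 had. Col2a1, the cartilage collagen, rose by 0.26 ± 0.06 with knockout in the wild-type (adjusted p = 0.0122), a call lost without wild-type knockout 3 (adjusted p = 0.0524).

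Procollagen synthesis, folding and secretion had 25 genes tested, and with knockout in the mutant 13 of them fell and none rose, where 5.77% of all genes fell. The median over the list was -0.21, against 0.03 over all genes. The decreases of smallest p were those of P3h2 (-1.02 ± 0.12, adjusted p = 0.000224), a prolyl 3-hydroxylase, Sec24d (-0.39 ± 0.05, adjusted p = 0.000782), a coat protein of the vesicles that export procollagen, P3h3 (-0.25 ± 0.04, adjusted p = 0.00346) and Plod2 (-0.30 ± 0.05, adjusted p = 0.00411), the lysyl hydroxylase of collagen telopeptides. The count was 11 without the 2 arrays of highest Ucp1, 8 without mutant control 2, and between 9 and 14 when any other array was left out. In the wild-type, 2 of the 25 rose with knockout and 4 fell. P3h2 (-0.88 ± 0.12) and Sec24d (-0.26 ± 0.05) fell there as well. Colgalt1 was also called lower in both the wild-type (-0.20, adjusted p = 0.0213) and the mutant (-0.28, adjusted p = 0.00691). P4ha3, a catalytic subunit of prolyl 4-hydroxylase, rose in the wild-type by 1.68 ± 0.21 (adjusted p = 0.000179). Ppib, a cyclophilin of procollagen folding, rose there by 0.30 ± 0.06 (adjusted p = 0.00531). The fallen count was 2 without control 3 or knockout 1 or 2 of the wild-type and with those groups alone in the fit, and 18.8% of all genes were called in this comparison. With the mutation in controls 5 rose and 2 fell, P3h1 by 0.30 ± 0.05 upwards (adjusted p = 0.00841), where 6.49% of all genes were called. The 2 decreases were of P4ha1 (-0.45 ± 0.09, adjusted p = 0.0105) and P4ha2 (-0.32 ± 0.08, adjusted p = 0.0288), like P4ha3 catalytic subunits of prolyl 4-hydroxylase. The risen count was 3 without wild-type control 1 or 3 or the 2 arrays of highest Ucp1, 2 without wild-type control 2 or mutant control 1, and 1 without mutant control 2, and the fallen count was 1 without wild-type control 3, mutant control 1 or mutant control 2. With those groups alone in the fit 2 rose and none fell. In the test of the interaction, Plod2 was the 1 gene of the list called (-0.46 ± 0.08, adjusted p = 0.0106), where 1.48% of all genes were. Leaving out wild-type control 1 made this 3 genes, and leaving out wild-type control 2, mutant control 3 or the 2 arrays of highest Ucp1 made it 2.

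Propeptide processing had 6 genes tested. Pcolce, an enhancer of C-propeptide cleavage, rose with knockout in the wild-type (0.46 ± 0.07, adjusted p = 0.00044), where 9.17% of all genes were called higher and 18.8% in either direction. In that comparison 2 of the 6 rose and 1 fell. The other rise, of the N-propeptidase gene Adamts3 (0.30 ± 0.08), was lost without wild-type control 2 (adjusted p = 0.0646), wild-type control 3 (adjusted p = 0.074), wild-type knockout 1 (adjusted p = 0.0732) or wild-type knockout 2 (adjusted p = 0.066). Pcolce also rose with the mutation in controls (0.32 ± 0.07, adjusted p = 0.0139), a call lost without wild-type control 2 (adjusted p = 0.0537) and without the 2 arrays of highest Ucp1 (adjusted p = 0.0572). Limma called none of the 6 with knockout in the mutant, where 2 had an unadjusted p under 0.05. Of 5 cross-linking genes tested, Lox, the main lysyl oxidase, fell with knockout in the mutant (-0.49 ± 0.10, adjusted p = 0.01), where 5.77% of all genes were called lower. In all, 2 of the 5 fell and none rose. The other, Loxl3, lost its call without mutant control 1 (adjusted p = 0.0514), mutant knockout 1 (adjusted p = 0.0536) or the 2 arrays of highest Ucp1 (adjusted p = 0.0927), and 1 gene rose without control 3 or knockout 1 or 2 of the wild-type, or without mutant knockout 3. Loxl4 rose with knockout in the wild-type (0.51 ± 0.08, adjusted p = 0.000896), where 18.8% of all genes were called. There 2 of the 5 rose and 1 fell. The other rise, of Loxl1 (0.19 ± 0.06), was lost without wild-type control 1 (adjusted p = 0.137), wild-type control 2, any wild-type knockout, mutant control 2, mutant knockout 2 or the 2 arrays of highest Ucp1 (adjusted p = 0.057), and the decrease, of Loxl3, without wild-type control 2, wild-type control 3 or wild-type knockout 3 (adjusted p = 0.111).

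Fibril-associated collagens and fibril regulators had 25 genes tested. With the mutation in controls, where 6.49% of all genes were called, 6 rose and 1 fell, the smallest p being that of Col14a1 (0.38 ± 0.06, adjusted p = 0.00324). The risen count was 3 without control 2 or 3 of the wild-type or control 1 or 2 of the mutant, and the decrease was lost without any of 9 arrays. Without the 2 arrays of highest Ucp1 4 rose and none fell, and with those groups alone in the fit 2 rose and none fell. With knockout in the wild-type, where 18.8% of all genes were called, 6 rose and 2 fell. Col12a1 rose by 1.21 ± 0.12 (adjusted p = 3.22e-05), the small proteoglycan lumican, Lum, by 0.51 ± 0.08 (adjusted p = 0.000743) and Col16a1 by 0.29 ± 0.05 (adjusted p = 0.00159). Tnxb, which encodes tenascin-X, a protein that binds collagen fibrils, fell by 0.72 ± 0.13 (log2 difference -0.72, adjusted p = 0.00181). With knockout in the mutant 2 rose and 6 fell, among them Col14a1 (-0.33 ± 0.06, adjusted p = 0.00382), periostin, Postn (-0.24 ± 0.04, adjusted p = 0.00437), and Tnxb (-0.66 ± 0.13, adjusted p = 0.0059). Of all genes, 13.4% were called in this comparison. Without the 2 arrays of highest Ucp1, none of the list rose and 4 fell. Tnxb thus fell in both genotypes, and the value of Col14a1 with knockout in the wild-type was 0.09 ± 0.06 (adjusted p = 0.342).

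**Figure D4:**
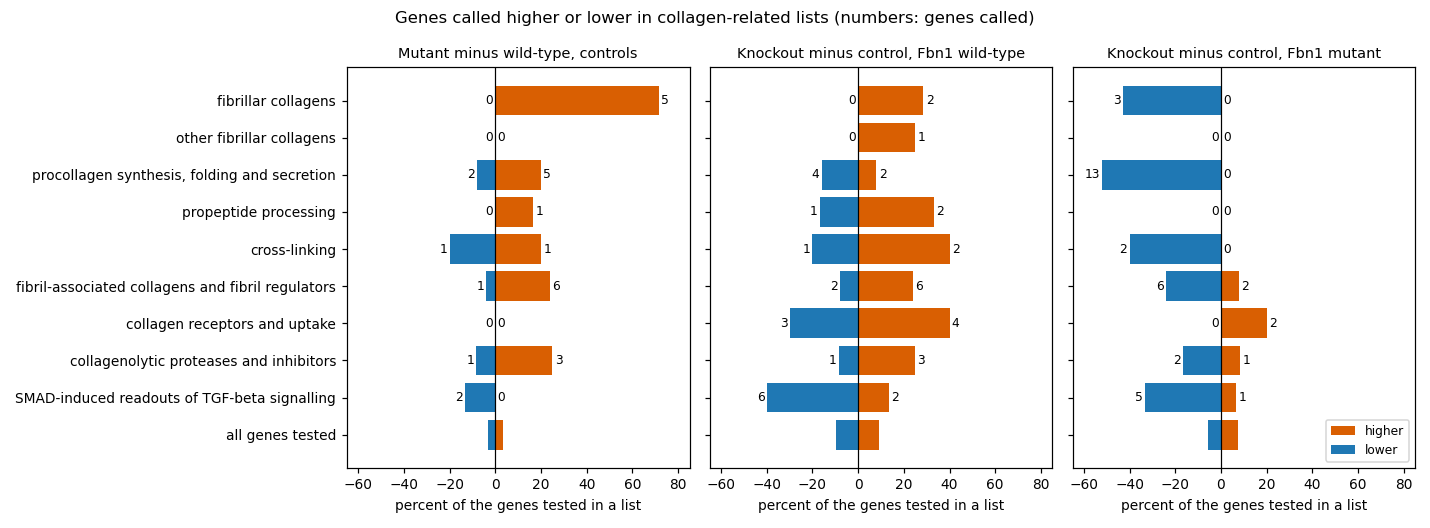
Percent of the genes tested in each collagen-related list that were called higher (right) or lower (left) in 3 comparisons, with the number of genes at each bar and all 14944 genes at the bottom. The 13 lower genes of procollagen synthesis with knockout in the mutant and the 5 higher members among controls are the longest bars in their panels.

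Collagen receptors and uptake genes were called in 7 of 10 with knockout in the wild-type, 4 higher and 3 lower, where 18.8% of all genes were called. The median over the list was -0.02, against -0.01 over all genes. The count of lower genes was 1 without wild-type control 3, any wild-type knockout or the 2 arrays of highest Ucp1. Limma called none with the mutation in controls, where 1 had an unadjusted p under 0.05. Itga11, the integrin alpha 11 subunit that binds type I collagen, rose by 0.75 ± 0.08 with knockout in the wild-type (adjusted p = 8.78e-05), Lair1, an inhibitory collagen receptor of leukocytes, by 0.55 ± 0.07 (adjusted p = 0.000153) and Mrc1, the macrophage mannose receptor, by 0.94 ± 0.14 (adjusted p = 0.000644). Mrc1 is itself 1 of the 14 macrophage markers in the sums given above.

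Collagenolytic proteases and their inhibitors had 12 genes tested, 4 of which had a lower knockout effect in the mutant, where 1.08% of all genes did. They were Ctsk, Timp1, Mmp2 and Fap. The call of Fap was lost without wild-type knockout 3 (adjusted p = 0.123) or the 2 arrays of highest Ucp1 (adjusted p = 0.125), among other settings. Without wild-type control 3, 3 genes of the list had a lower effect and 1 a higher effect. Ctsk, the collagen-degrading cathepsin K, rose with the mutation in controls (0.63 ± 0.05, adjusted p = 9.32e-05) and with knockout in the wild-type (0.62 ± 0.05, adjusted p = 1.16e-05), and its interaction was -0.81 ± 0.07 (adjusted p = 0.000388). Timp1, a metalloprotease inhibitor, rose by 1.54 ± 0.13 with knockout in the wild-type (adjusted p = 1.16e-05), with an interaction of -1.26 ± 0.18 (adjusted p = 0.00514). Mmp2, gelatinase A, rose by 0.39 ± 0.07 with knockout in the wild-type (adjusted p = 0.00187), with an interaction of -0.60 ± 0.10 (adjusted p = 0.00974). Timp4 rose by 1.25 ± 0.15 with knockout in the mutant (adjusted p = 0.00038).

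The list of SMAD-induced readouts of TGF-beta signalling also held the genes of TGF-beta ligands and receptors, the targeted Tgfbr2 among them. Its counts are therefore not of readouts alone. In this list more genes fell than rose with knockout in both genotypes. Of 15 tested, 6 fell and 2 rose with knockout in the wild-type, and 5 fell and 1 rose in the mutant, where 18.8% and 13.4% of all genes were called. In the wild-type 1 rose without wild-type knockout 1 or wild-type knockout 2. In the mutant none rose and 3 fell without mutant control 1, mutant control 2 or mutant knockout 2, and none rose and 4 fell without mutant knockout 1, mutant knockout 3 or the 2 arrays of highest Ucp1. Pmepa1, an inhibitor of TGF-beta signalling induced by it, fell in both (-0.40 ± 0.05, adjusted p = 0.000153, and -0.55 ± 0.05, adjusted p = 3.53e-05), and so did its relative Ldlrad4 (-0.58 ± 0.07, adjusted p = 0.000204, and -0.67 ± 0.07, adjusted p = 0.000164). By limma none of the 15 rose with the mutation in controls, where 0 were higher at an unadjusted p under 0.05 as well and 2 fell. None fell without wild-type control 1, wild-type control 2, mutant control 1 or mutant control 2, and 1 fell without the 2 arrays of highest Ucp1 or any other single array but wild-type control 3.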

How the data were processed

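Total RNA of the ascending aorta was labelled with biotin and hybridised by the authors to 1-colour whole-transcript arrays. The deposited values are linear intensity, normalised with RMA in Partek 6.4 per the submitters' processing notes, and log2 was taken here. Genes with a mean under the 25th percentile of the probe sets annotated to 1 symbol (log2 7.31, an intensity of 159) were not tested. Group means were modelled over the 12 arrays by limma 3.58.1 in R 4.3.3 (lmFit, eBayes), and contrasts were tested two-sided with Benjamini-Hochberg adjustment over 14944 genes and a threshold of 0.05. Probe sets with several symbols were left out. Named genes are all members, Tgfbr2, up to 4 genes of smallest p per list and comparison, and the genes of highest r. Ucp1, P4ha2, Colgalt1, the genes shared between lists and the other fibrillar collagens were named outside that rule. Members and lists were chosen with earlier results of these data known. Differences were recomputed under 11 kinds of alternative: filters, scalings, probe sets, variance models, arrays in the fit and a block. The procedure was tested on simulated data.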

Additional observations from a re-analysis of the deposited data

Results flagged for a closer look

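For 3 members the knockout effect differed between the Fbn1 genotypes by the test of the difference itself. The effect in the mutant minus that in the wild-type was -0.57 for Col1a1, -0.64 for Col3a1 and -0.60 for Col5a2 on the log2 scale, in each case with the wild-type knockouts above and the mutant knockouts below their own controls and no overlap of arrays in either genotype.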

How the results depend on the processing

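Of 49 results for the members, 18 were called, and 15 of these were called under every alternative; 0 called results changed sign. The 8 results with a sign change were uncalled. For the mutation in controls, Col11a1 was -0.018 without the 2 arrays of highest Ucp1 and -0.018 to 0.07 leaving out 1 array, and Col5a3 -0.015 to 0.047. For the mutation in knockouts, Col5a3 was -0.026 with median centring, -0.025 with quantile normalization and -0.031 to 0.051 leaving out 1 array, and Col11a1 -0.033, -0.026 and -0.018 to 0.023, with -0.003 under array weights and -0.005 without the Ucp1 arrays. Col5a2 in mutant knockouts against wild-type controls was -0.01 with centring. Col5a3 in wild-type knockouts against mutant controls was -0.008 to 0.074 leaving out 1 array. For the difference of effects, Col5a3 was 0.004 with array weights and -0.051 to 0.031 leaving out 1 array, and Col11a1 0.013 without the Ucp1 arrays and -0.069 to 0.019.

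Counts of all genes called moved with the fit. For knockout in the mutant they were 2008 as reported, 3687 with array weights, 1082 without the Ucp1 arrays and 1261 with those groups alone in the fit. The others were 1568 and 480 for the mutation in controls (array weights, those groups alone; 970 reported), 1687 and 409 for the mutation in knockouts (array weights, no Ucp1 arrays; 890), 2181 for mutant knockouts against wild-type controls without the Ucp1 arrays (3479) and 469 for the difference with array weights (221). Of the members, 5 were called for knockout in the mutant with centring and 1 for the mutation in knockouts with array weights. The cause was not tested.

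Leaving out 1 array gave 1836 to 2992 genes and 1 to 3 members for knockout in the wild-type, 896 to 2146 and 2 to 5 in the mutant, 349 to 1073 and 5 for the mutation in controls, 382 to 1019 and 0 in knockouts, 2299 to 3503 and 1 to 2 for mutant knockouts against wild-type controls, 1590 to 3037 and 3 to 5 for wild-type knockouts against mutant controls, and 107 to 202 and 3 for the difference. Calls that missed narrowly and were gained elsewhere are given with their comparisons, beside Col1a2 in the difference with trend and robust variances (adjusted p = 0.0486) and, with centring, Col1a1 (0.0285) and Col5a1 (0.041) for knockout in the mutant. Split by direction, 47% of the calls for the mutation in knockouts were higher as deposited and 29.5% with centring, and 48.9% and 31.1% for mutant knockouts against wild-type controls. The filter at the median gave no value for Col5a3. When the replicate number was a block, 2595 genes were called for knockout in the wild-type and no member's call changed. Deviations from group means correlated above 0.1 in 3 of 18 same-numbered pairs, the highest at 0.24. Differently numbered pairs were not compared, so this cannot tell whether the numbers pair samples, and the labels do not say. Of 137 results for named list genes, 90 were called under every alternative and 0 changed sign. With 3 arrays a group, the number of arrays limits the precision.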
